A study of Mus musculus with 10 samples.

Results

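The interferon gamma and type 1 helper T cell (Th1) group comprised 9 genes, and 9 of 9 were found among the 19938 genes on the array with a symbol of their own. They were Ifng, Tbx21, Stat4, Il12rb1, Il12rb2, Il18r1, Il18rap, Eomes and Runx3, chosen by name, and each had 1 probe set on the array. RNA came from CD4+ spleen cells of female mice aged 8 weeks, isolated with CD4 magnetic beads, and was read on 10 Affymetrix arrays. The B10 strain (genotype B10Br in the labels) and the NOD strain (genotype NODk) each had 3 arrays at T0 and 2 at T1. T1 cells were treated for 4 hours with the phorbol ester PMA at 10 ng/ml together with the calcium ionophore ionomycin at 1 uM. T0 cells received neither agent, and the labels call them basal, although the protocol can also be read as culture without stimulus for the same time. The labels call the samples biological replicates without tying arrays to animals, so p-values measure the spread between these samples.

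Interferon gamma is the signature cytokine of Th1 cells and activates macrophages. Naive CD4 T cells become Th1 cells when T cell receptor signals, interferon gamma and IL-12 act together: the transcription factor T-bet (Tbx21) opens the Ifng locus, and IL-12 signals through its 2 receptor chains to STAT4. IL-18, received by the chains encoded by Il18r1 and Il18rap, adds to interferon gamma output, while Eomes is a relative of T-bet most abundant in natural killer (NK) and CD8 T cells and Runx3 is a partner of T-bet. PMA activates protein kinase C and ionomycin raises calcium, so both bypass the receptors at the cell surface.

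The sequences just before the transcription start are shown for the cytokine, its main regulator and the 2 receptor chains that fell in both strains, since these members moved in opposite directions. Each is the 250 bases before the most upstream start in the RefSeq promoter table (GRCm38.p6), 5′ to 3′ on the strand of the gene. Ifng lies on the plus strand (chr10:118440796-118441045), Tbx21 on the minus strand (chr11:97115332-97115581), Il12rb2 on the minus strand (chr6:67376189-67376438) and Il18r1 on the plus strand (chr1:40465302-40465551). Capitals mark letters that match a STAT site (GAS, TTCNNNGAA) or an NFAT core (GGAAA), read on both strands.
Ifng: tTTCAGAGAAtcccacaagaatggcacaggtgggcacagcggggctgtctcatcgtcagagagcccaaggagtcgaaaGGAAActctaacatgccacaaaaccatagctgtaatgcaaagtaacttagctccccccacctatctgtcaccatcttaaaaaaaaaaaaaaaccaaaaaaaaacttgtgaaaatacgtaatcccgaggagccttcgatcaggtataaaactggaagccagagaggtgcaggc
Tbx21: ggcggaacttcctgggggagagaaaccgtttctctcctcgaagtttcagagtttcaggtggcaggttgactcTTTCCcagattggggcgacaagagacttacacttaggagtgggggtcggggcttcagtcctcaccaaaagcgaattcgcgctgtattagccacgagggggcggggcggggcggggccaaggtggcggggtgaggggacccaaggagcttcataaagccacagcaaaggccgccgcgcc
Il12rb2: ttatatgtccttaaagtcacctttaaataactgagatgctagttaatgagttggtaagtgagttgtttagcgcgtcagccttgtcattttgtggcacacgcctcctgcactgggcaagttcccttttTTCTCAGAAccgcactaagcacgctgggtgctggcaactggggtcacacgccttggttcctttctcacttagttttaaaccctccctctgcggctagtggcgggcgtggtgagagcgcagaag
Il18r1: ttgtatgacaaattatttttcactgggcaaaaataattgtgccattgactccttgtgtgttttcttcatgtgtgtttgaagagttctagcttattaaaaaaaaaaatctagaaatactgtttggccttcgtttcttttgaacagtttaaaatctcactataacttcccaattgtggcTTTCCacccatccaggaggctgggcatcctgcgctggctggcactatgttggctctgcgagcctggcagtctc

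Windows of 300 bases, which also hold 50 bases after the start, were found for 8 of the 9 members (all but Il12rb1). The window at the most upstream start of each gene was searched for 6 motifs, of which GGTGTG is part of GGTGTGA. Il18r1 had 3 windows and Stat4 and Runx3 had 2 each, and their other windows were not searched. Ifng held 1 GAS match, from position -249, and 1 NFAT core, from position -172, counted from the start. Il12rb2 held 1 GAS match, from position -123, and no NFAT core. In all, 6 of the 8 windows held an NFAT core. Tbx21 and Il18r1 held 1 NFAT core each, at positions -178 and -73, and both were on the opposite strand. The GAS letters occur in 8.3% and the NFAT core in 61.3% of the 32851 windows of this length. The T-box letters GGTGTGA (3.98% of windows), GGTGTG (19.0%) and the AP-1 letters TGANTCA (7.81%) were in none of the 8 member windows. The RUNX letters TGTGGT (16.8% of windows) occurred in Runx3 itself, with 2 matches, and in Il18rap, with 1.

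All values below are log2 array signals after RMA, and a difference of 1 is a doubling. The number of arrays limits precision, and values of different probe sets are not comparable as levels. Array medians lay between 6.18 and 6.23. Arrays of one group correlated with r from 0.985 to 0.993 (Pearson, all probe sets), and arrays of different groups with r from 0.943 to 0.984. Cd4, the marker of the sort, had a mean of 11.09 in B10 and 10.95 in NOD at T0. Markers of other cells also gave signal at T0. B cell markers had a mean per array of 8.22 to 8.49 in B10 and 8.49 to 8.80 in NOD. For monocyte and macrophage markers it was 7.91 to 8.24 and 8.43 to 8.62. Among the 10 marker lists, red cell precursor markers (4 measured, such as Alas2, an enzyme of heme synthesis) differed most between strains at T0 (median 2.50). Their mean per array at T0 was 6.89 to 9.15 in B10 and 9.96 to 10.57 in NOD. Within B10 both arrays of replicate 3 were the highest in them. In bulk samples, fewer cells of a type and less RNA per cell cannot be told apart.

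Stimulation split the group. In each strain 2 members rose, Ifng and Tbx21, and 4 fell, Stat4, Il12rb2, Il18r1 and Runx3. The other three, Il12rb1, Il18rap and Eomes, did not pass in either strain (limma, adjusted p under 0.05). As background, the share of all genes called higher was 13.7% in B10 and 16.1% in NOD, and the share called lower 18.1% and 19.5%. In either direction, 6 of 9 members were called in each strain, against 31.8% of all genes in B10 and 35.5% in NOD. The median change of the members was -0.45 in B10 and -0.52 in NOD, beside medians of 0.031 and 0.081 over all genes. When arrays were instead aligned at their 75th percentile, the all-gene median in NOD moved to 0.21 and the split of NOD calls from 3201 higher and 3884 lower to 5393 and 3145, while the member counts stayed at 6 in both strains.

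**Figure D1:**
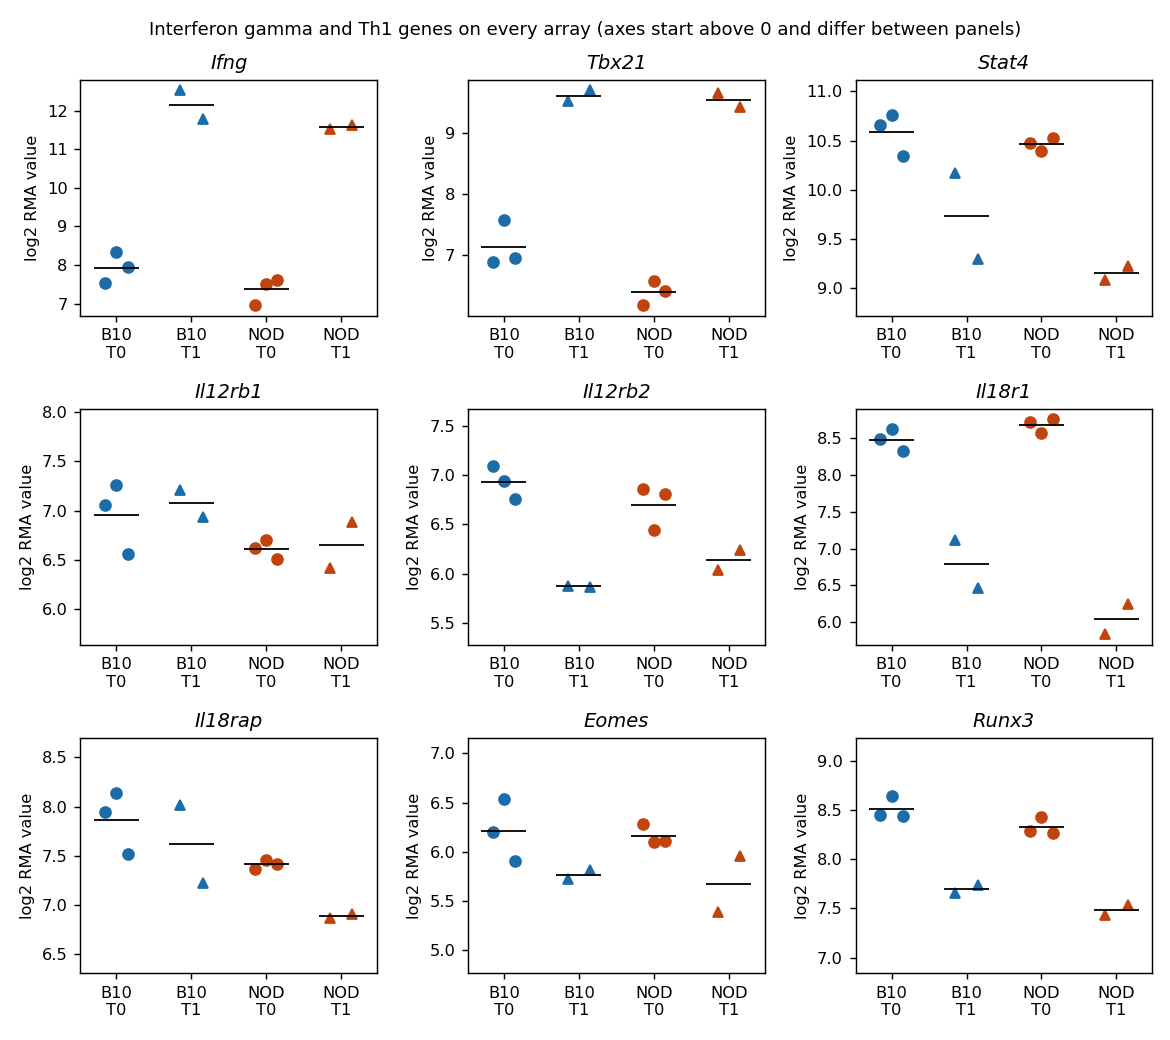
Log2 RMA value (y axis, a different range in each panel) of each member on each of the 10 arrays, by strain and state (x axis); circles are T0, triangles T1, blue B10, red NOD and bars group means. Ifng and Tbx21 stand higher at T1 in both strains, Stat4, Il12rb2, Il18r1 and Runx3 stand lower, and Il12rb1 overlaps between states.

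Ifng had the largest change of the group. In B10 its values were 7.54, 8.32 and 7.94 at T0 and 12.52 and 11.78 at T1. In NOD they were 6.97, 7.52 and 7.62 at T0 and 11.52 and 11.63 at T1. No T1 array overlapped a T0 array in either strain, as for 52.4% of all genes in B10 and 56.0% in NOD. The log2 difference was 4.22 ± 0.25 (SE, limma) in B10, 18.7-fold, with an adjusted p of 6.2e-08. In NOD it was 4.21 ± 0.25, 18.5-fold, with an adjusted p of 6.63e-08. Among all genes ordered by rise, Ifng ranked 9 in B10 and 6 in NOD.

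Tbx21, which encodes T-bet, also rose in both strains. Its values in B10 were 6.88, 7.57 and 6.96 at T0 and 9.53 and 9.69 at T1, and in NOD 6.19, 6.58 and 6.41 at T0 and 9.66 and 9.43 at T1. Both strains thus reached overlapping values after stimulation, from a lower start in NOD. The difference was 2.47 ± 0.19 in B10, or 5.55-fold, with an adjusted p of 3.9e-07, and 3.15 ± 0.19 in NOD, or 8.9-fold, with an adjusted p of 5.57e-08. These were ranks 73 and 22 among all genes.

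The other transcription factors did not rise. Eomes had values of 6.20, 6.54 and 5.91 at T0 and 5.72 and 5.81 at T1 in B10, and 6.28, 6.09 and 6.11 at T0 and 5.39 and 5.95 at T1 in NOD. All T1 arrays lay below all T0 arrays of the strain, yet the differences of -0.45 ± 0.18 (adjusted p = 0.0841) and -0.49 ± 0.18 (adjusted p = 0.0533) did not pass. Eomes passed in NOD with some other variance models, for example with only the arrays of these groups (adjusted p = 0.0438), and without NOD_T1 replicate 3 (-0.78, adjusted p = 0.00998), but was -0.21 without NOD_T1 replicate 2 (adjusted p = 0.441). In B10 it passed without B10_T0 replicate 3 (-0.60, adjusted p = 0.0221) and was -0.29 without B10_T0 replicate 2 (adjusted p = 0.283).

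Runx3 fell by similar amounts in both strains. Its values went from 8.45, 8.64 and 8.44 to 7.65 and 7.74 in B10 (-0.81 ± 0.10, adjusted p = 3.61e-05) and from 8.29, 8.43 and 8.27 to 7.44 and 7.54 in NOD (-0.84 ± 0.10, adjusted p = 2.85e-05). Its standard error was the smallest of the 9 members.

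Stat4, the transducer of IL-12, fell in both strains. In B10 the T0 values were 10.66, 10.76 and 10.34, and the T1 values 10.17 and 9.30 lay wide apart (-0.85 ± 0.20, adjusted p = 0.00478). In NOD the T0 values were 10.48, 10.40 and 10.52 and the T1 values 9.08 and 9.22 (-1.32 ± 0.20, adjusted p = 0.000182). The B10 call ended without B10_T1 replicate 3 (-0.42, adjusted p = 0.0799), and leaving out replicate 2 instead gave -1.29.

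The IL-12 receptor chains behaved differently from each other. Il12rb1, the chain shared with the IL-23 receptor, had values of 7.05, 7.26 and 6.56 at T0 and 7.21 and 6.94 at T1 in B10. In NOD they were 6.62, 6.70 and 6.51 at T0 and 6.41 and 6.89 at T1. T0 and T1 overlapped in both strains, and the changes were 0.11 (95% interval -0.30 to 0.53) and 0.041 (-0.37 to 0.46). Il12rb2, the signalling chain that sets IL-12 responsiveness, went from 7.09, 6.94 and 6.76 to 5.88 and 5.86 in B10, a 2.08-fold fall (-1.06 ± 0.14, adjusted p = 5.15e-05). In NOD it went from 6.86, 6.44 and 6.81 to 6.04 and 6.24 (-0.56 ± 0.14, adjusted p = 0.00667). No arrays of both states overlapped for Il12rb2. The NOD call ended without NOD_T1 replicate 2 (-0.46, adjusted p = 0.062).

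The IL-18 receptor chains also parted. Il18r1, the ligand-binding chain, had the largest fall of the group. In B10 its values were 8.49, 8.63 and 8.32 at T0 and 7.11 and 6.47 at T1, a 3.22-fold fall (-1.69 ± 0.18, adjusted p = 6.68e-06). In NOD they were 8.72, 8.57 and 8.75 at T0 and 5.84 and 6.24 at T1, a 6.23-fold fall (-2.64 ± 0.18, adjusted p = 1.51e-07), which ranked 41 among all falls. T0 arrays lay far above all T1 arrays in both strains.

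Il18rap, the accessory chain, had values of 7.95, 8.14 and 7.52 at T0 and 8.02 and 7.22 at T1 in B10, which overlapped (-0.25, 95% interval -0.70 to 0.20, adjusted p = 0.445). In NOD the values were 7.37, 7.46 and 7.42 at T0 and 6.87 and 6.91 at T1. All NOD T1 arrays were lower, but the difference of -0.52 ± 0.21 did not pass (adjusted p = 0.067). It passed with only the NOD arrays in the fit (adjusted p = 0.00328). In B10 it passed without B10_T1 replicate 2 (-0.65, adjusted p = 0.025) and was 0.15 without B10_T1 replicate 3 (adjusted p = 0.679).

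**Figure D2:**
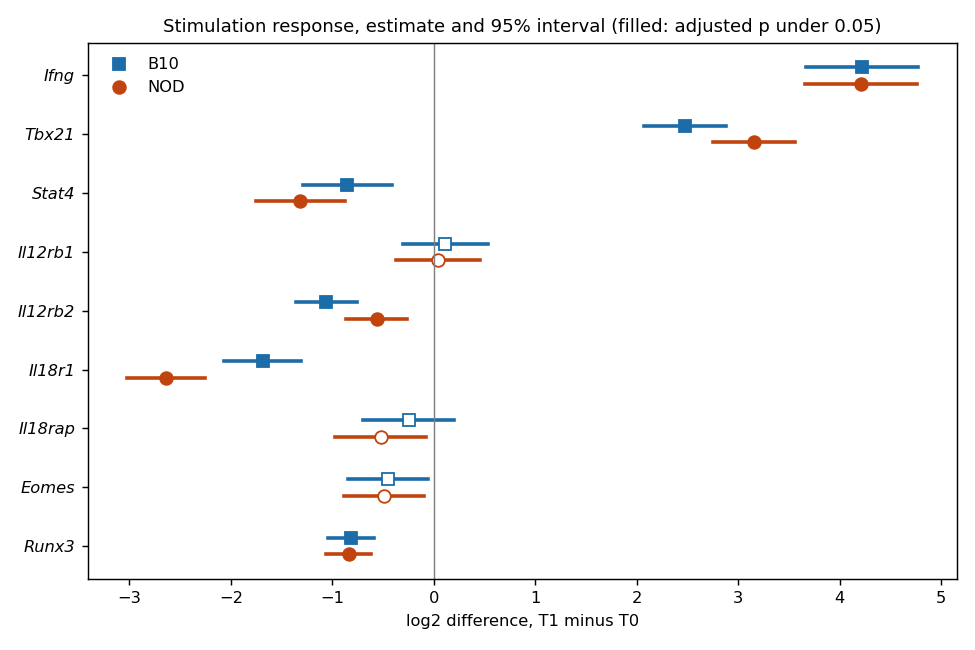
Log2 difference T1 minus T0 (x axis) of each member (y axis) in B10 (squares) and NOD (circles), with limma's 95% interval unadjusted for the number of genes; filled symbols passed an adjusted p of 0.05. Ifng (4.22 and 4.21) and Tbx21 (2.47 and 3.15) lie to the right and Il18r1 (-1.69 and -2.64) farthest to the left.

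Between strains at T0, NOD cells had less Tbx21, and no other member passed. Tbx21 was 1.68-fold lower in NOD (-0.75 ± 0.17, adjusted p = 0.0182), with all 3 NOD arrays (6.19 to 6.58) below all 3 B10 arrays (6.88 to 7.57). That made 1 of 9 members called, against 5.79% of all genes. The call ended without B10_T0 replicate 2 (-0.53, adjusted p = 0.0521), without NOD_T0 replicate 1 (-0.64, adjusted p = 0.0973), without NOD_T0 replicate 3 (-0.76, adjusted p = 0.0647) and with every probe set of the table tested (adjusted p = 0.0668).

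Of the other members at T0, 7 had estimates below 0 and 1 above, none passed, and Ifng and Il18rap had an unadjusted p under 0.05. Ifng was lower in NOD by 0.57 on the log2 scale (NOD minus B10 -0.57 ± 0.23, adjusted p = 0.224) with overlapping arrays. Il18rap had -0.45 ± 0.19 (adjusted p = 0.24), with all NOD arrays (7.37 to 7.46) below all B10 arrays (7.52 to 8.14). It passed without both B10 arrays of replicate 3 (-0.63, adjusted p = 0.00487) and with array weights (-0.54, adjusted p = 0.0418), and was -0.32 without B10_T0 replicate 2 (adjusted p = 0.602). Il12rb1 had -0.35 ± 0.17 (adjusted p = 0.362) and also passed with array weights (-0.49, adjusted p = 0.0418). Single omissions moved it from -0.55 without B10_T0 replicate 3 (adjusted p = 0.0625) to -0.20 without B10_T0 replicate 2 (adjusted p = 0.785). Il18r1 alone had a positive estimate, 0.20 (95% interval -0.14 to 0.55). In all, 8 of 9 estimates were below 0 at T0, beside 54.7% of all genes. Arrays of both strains did not overlap for 3 members, Tbx21, Il18rap and Runx3, beside 22.8% of all genes.

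At T1, 0 of 9 members differed between strains by limma, against 3.6% of all genes (1.77% higher and 1.83% lower), with 3 at an unadjusted p under 0.05. Aligned at the 75th percentile, the split over all genes moved from 353 higher and 365 lower to 397 and 269. The 3 members with an unadjusted p under 0.05 in the main fit had negative estimates. They were Il18r1 (-0.75 ± 0.19, adjusted p = 0.0542), Il18rap (-0.73 ± 0.23, adjusted p = 0.109) and Stat4 (-0.58 ± 0.22, adjusted p = 0.195). Each of these passed without B10_T1 replicate 3, the lower of the 2 B10 arrays for all of them: Il18r1 at -1.07 (adjusted p = 0.00762), Il18rap at -1.13 (adjusted p = 0.0108) and Stat4 at -1.02 (adjusted p = 0.0071). Without B10_T1 replicate 2 instead, they were -0.43 for Il18r1 (adjusted p = 0.363), -0.33 for Il18rap (adjusted p = 0.557) and -0.15 for Stat4 (adjusted p = 0.796). Ifng was -0.58 (95% interval -1.18 to 0.023) and Tbx21 -0.067 (-0.51 to 0.37). Il12rb2 was the member with a positive estimate at T1, 0.27 (-0.064 to 0.60). Arrays of the strains did not overlap for 7 of 9 members, beside 41.8% of all genes with 2 arrays a group.

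Whether the strains responded differently was asked with the difference of the differences, the change in NOD less the change in B10. By limma 0 of 9 members passed, against 0.246% of all genes, and 3 had an unadjusted p under 0.05. The 3 were Il18r1 (-0.95 ± 0.25, adjusted p = 0.202), Tbx21 (0.68 ± 0.26, adjusted p = 0.458) and Il12rb2 (0.50 ± 0.20, adjusted p = 0.479). The larger fall of Il18r1 in NOD passed only without B10_T1 replicate 3 (-1.27, adjusted p = 0.0374) among the settings tried, and was -0.63 without B10_T1 replicate 2 (adjusted p = 0.479). For Ifng the interaction was -0.013, with a 95% interval of -0.79 to 0.76.

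**Figure D3:**
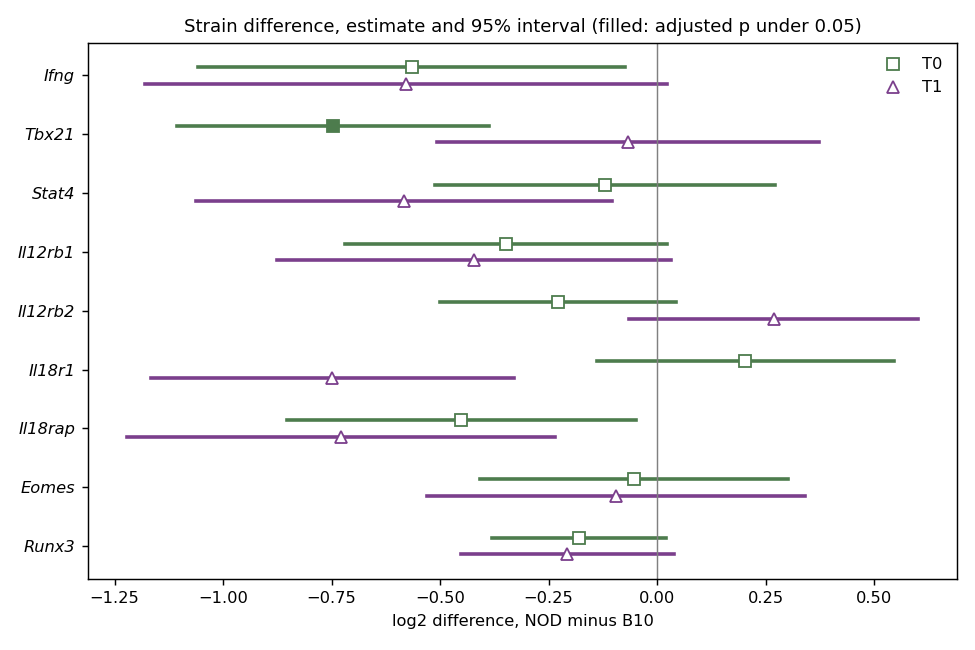
Log2 difference NOD minus B10 (x axis) of each member (y axis) at T0 (squares) and T1 (triangles), with limma's unadjusted 95% interval; the filled symbol, Tbx21 at T0 (-0.75), passed an adjusted p of 0.05. Most estimates lie left of 0, and the exceptions are Il18r1 at T0 (0.20) and Il12rb2 at T1 (0.27).

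Some markers of innate-like lymphocytes, which also express T-bet and interferon gamma, differed between the strains. Zbtb16, which encodes the NKT cell regulator PLZF, had values of 8.90, 8.31 and 8.17 in B10 and 7.14, 7.15 and 7.11 in NOD at T0. It was lower in NOD at T0 (-1.32) and at T1 (-1.30). Of 3 NKT and innate-like markers, Klrb1c also being in the NK list, 2 were lower at T0 (Zbtb16 and Klrb1c) and 2 at T1 (Zbtb16 and Cd160). The mean of the 3 per array was 6.53 to 6.80 in B10 and 5.52 to 5.67 in NOD at T0, and 6.41 to 6.68 against 5.36 to 5.39 at T1. Over all genes, 2.35% were called lower in NOD at T0 and 1.83% at T1. Of 14 NK and innate lymphoid markers, 6 were lower and 0 higher in NOD at T0. The other 8 were not called, and the list median was -0.075. At T1, 3 of these markers were lower and 0 higher (2 lower when aligned at the 75th percentile). Their mean per array was 6.11 to 6.20 in B10 and 5.79 to 5.83 in NOD at T0. Klrd1, an NK receptor chain, had -0.94 at T0. Ncr1, the defining NK receptor, had group means from 4.71 to 4.82, below the array medians (6.18 to 6.23). It passed in no contrast between strains, and a change near background would be understated. The part of these cells in the Tbx21 difference was not tested.

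Other marker lists were read the same way. Of 7 CD4 T cell markers 0 passed between strains by limma at T0 and 0 at T1 (2 and 4 at an unadjusted p under 0.05), with medians of -0.14 and -0.25. Of 2 CD8 markers 1 was lower in NOD at T0 (Cd8b1, -0.49). All 4 red cell precursor markers, 4 of 8 neutrophil markers (3 when aligned at the 75th percentile), 3 of 10 monocyte and macrophage markers, 1 of 8 B cell markers and 1 of 4 plasma cell markers were higher in NOD at T0. With stimulation, B cell (5 of 8 in B10, 6 of 8 in NOD), monocyte and macrophage (8 and 9 of 10), neutrophil (5 and 7 of 8) and dendritic cell markers (3 and 4 of 7) fell. Of these lists, 1 B cell marker rose in B10 (Cr2, 1.37) and 1 dendritic cell marker in NOD (Zbtb46, 0.47), both named after their values were seen. In the CD4 T cell list 4 of 7 markers fell in each strain, Cd4 among them (-1.46 in B10 and -1.72 in NOD). Another 1 rose in B10 and 2 in NOD, beside the falls of Stat4, Runx3, Il12rb2 and Il18r1 in the same arrays. The part of the marker changes in the member changes was not tested.

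Arrays of a group were also compared by how many members had their highest value there. In B10 at T0, replicate 2 was the highest array for 8 of 9 members, all but Il12rb2, while it was the highest for 27.1% of all genes. Replicate 3, the B10 T0 array highest in red cell markers, was the highest for 0 of 9 members and for 35.0% of all genes. In NOD at T1, replicate 3 was the higher array for 8 of 9 members, all but Tbx21, and for 54.9% of all genes. At T1 in B10, replicate 2 was higher for 6 of 9, and for 51.2% of all genes. In NOD at T0 the members were split, with 2, 4 and 3 of 9 highest on replicates 1, 2 and 3. Zbtb16 did not follow this order, its highest B10 T0 array being replicate 1 (8.90).

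The 4 groups were also ordered by their means for each member. Ifng and Tbx21 ran from B10 at T1 through NOD at T1 and B10 at T0 to NOD at T0, with the gap between states (3.64 and 2.41) far above the gaps between strains. The strains overlapped at T0 for Ifng and at T1 for Tbx21. Stat4, Eomes and Runx3 ran B10 T0, NOD T0, B10 T1, NOD T1, and the strains overlapped at T0 for Stat4 and Eomes and at T1 for Eomes. Il18r1 was highest in NOD T0 and lowest in NOD T1, and Il12rb2 highest in B10 T0 and lowest in B10 T1, with overlap only between the T0 groups for both. For Il12rb1 every pair of neighbouring groups overlapped, and for Il18rap only NOD T1 stood clear of its neighbour.

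Some neighbouring genes, taken from the RefSeq gene order after their values were seen, moved with a member and others did not. Il23r, the IL-23 receptor chain next to Il12rb2 on chromosome 6, rose (1.29 in B10, 0.99 in NOD) where Il12rb2 fell. Tbkbp1, which encodes a TBK1-binding adaptor and lies next to Tbx21 on chromosome 11, rose with it (1.00 and 1.32), as did the next gene, Kpnb1 (0.39 and 0.28), which encodes importin beta. Syf2 and Rsrp1, the closest genes on one side of Runx3 on chromosome 4, fell with it (-0.88 and -0.96 for Syf2, -1.44 and -1.40 for Rsrp1), while Clic4, on its other side, rose (1.38 and 1.07). Iltifb, an Il22-like gene next to Ifng on chromosome 10, rose by 0.82 and 0.80, although its probes may share sequence with Il22. In the interleukin receptor cluster on chromosome 1, Il1rl2, which encodes the IL-36 receptor, fell (-1.87 and -2.15) with Il18r1. There Slc9a4, on the far side of Il18rap, had 0.048 and 0.031 (adjusted p = 0.794 and 0.836).

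Among signalling partners of IL-12 and IL-18 (14 measured of 16 listed), B10 had 4 rising and 5 falling and NOD 5 rising and 5 falling, with medians of -0.15 and 0.0061. Aligned at the 75th percentile, 4 fell in each strain. The kinase Jak2, which pairs with the IL-12 receptor, rose by 1.13 and 1.51, while its partner Tyk2 fell (-0.76 and -0.58). Traf6, the ubiquitin ligase of the IL-18 pathway, rose by 1.49 and 1.71, while its adaptor Myd88 fell (-0.95 and -0.97). Il27ra, the receptor chain for IL-27, another Th1-promoting cytokine, fell (-1.31 and -1.26). Between strains, Il12b, the IL-12 p40 subunit, was lower in NOD at T0 (-0.99) and T1 (-1.22), and Il18 was higher at T0 (0.80).

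Of 15 measured transcriptional partners of the Th1 programme, 6 rose and 4 fell in each strain (medians 0.23 and 0.34). Batf, an AP-1 family factor of activated T cells, rose by 2.47 in B10 and 2.84 in NOD. Rel, an NF-kB subunit, rose by 1.08 and 0.96, and Irf1 by 0.66 and 0.75. Ets1, a cofactor of T-bet at Ifng, fell (-2.15 and -2.32), as did Nfatc2 (-0.85 and -0.64), which was also lower in NOD at T0 (-0.37). Runx1 fell with its relative Runx3 (-0.32 and -0.42), a call that ended in B10 with the 75th percentile alignment, and Cbfb, the shared RUNX partner subunit, had -0.04 and 0.06, neither called.

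Opposing regulators were mixed, with 2 rising and 4 falling of 10 in B10 and 3 and 4 in NOD (medians -0.26 and -0.10). Gata3, the Th2 master regulator, rose alongside Tbx21 (1.20 and 1.07), and Socs1, an inhibitor of interferon signalling, rose by 0.96 and 1.50. Bcl6, the follicular helper factor, fell (-0.74 and -0.74), as did Zbtb7b (-0.80 and -0.67), which encodes the CD4 lineage factor ThPOK and opposes Runx3. Aligned at the 75th percentile, 3 rose and 3 fell in B10 and 4 rose and 3 fell in NOD, where the median turned to 0.026. Between strains 0 of the 10 passed by limma at T0 and 0 at T1 (2 and 1 at an unadjusted p under 0.05).

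The chains of the interferon gamma receptor fell, and some of the response genes rose. Of 20 measured receptor and response genes, 9 rose and 3 fell in B10 (median 0.36), and 13 rose and 4 fell in NOD (median 0.66). Ifngr1, the ligand-binding chain, fell strongly (-2.96 in B10 and -3.21 in NOD), as did Ifngr2 (-1.32 and -1.26) and the kinase Jak1 (-0.44 and -0.48). The fourth fall in NOD, of Ciita (-0.33), the activator of MHC class II genes, was named after its value was seen and ended with the 75th percentile alignment. Gbp5, a guanylate-binding protein, rose by 2.48 and 3.17, Irf8 by 2.28 and 1.84 and the chemokine Cxcl10 by 1.01 and 1.91. Many of these genes also respond to type I interferon. At T1, 2 were higher in NOD, Gbp5 (0.96) and Gbp7 (0.98). At T0, 3 genes of antigen processing were lower in NOD, Psmb8 (-0.62), Psmb9 (-0.52) and Tap1 (-0.57).

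Surface genes and effectors typical of Th1 cells numbered 15 of 17 listed, and 8 rose and 2 fell in each strain (medians 0.58 and 0.66). The largest rise was that of the T cell growth factor Il2 (6.10 and 5.16), with the chemokines Ccl4 (4.04 and 4.32) and Ccl3 (3.88 and 3.60) and the protease Gzmb (3.65 and 3.16). The Th1 homing receptor Cxcr3 had 0.58 and 0.46, neither called. At T0, 6 of the 15 were lower in NOD and 2 higher, with a median of -0.49 beside -0.015 over all genes, and 2.35% of all genes were lower and 3.44% higher. Among the lower ones were Ccl5 (-1.44), a chemokine of memory and effector T cells, Nkg7 (-1.15), a granule protein, and the surface receptors Cd226 (-0.87) and Slamf1 (-0.60). The higher ones, named after their values were seen, were Havcr2 (0.55), which encodes TIM-3, and Il2 (0.54). At T1, Ccl5 (-1.52) and Fasl (-0.61) were lower and 0 were higher. NK and CD8 T cells express several of these genes, Ccl5 and Nkg7 among them. In the same arrays, 6 of 14 NK and innate lymphoid markers were lower in NOD at T0 and 8 were not called (median -0.075). The part of such cells in these differences was not tested.

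**Figure D4:**
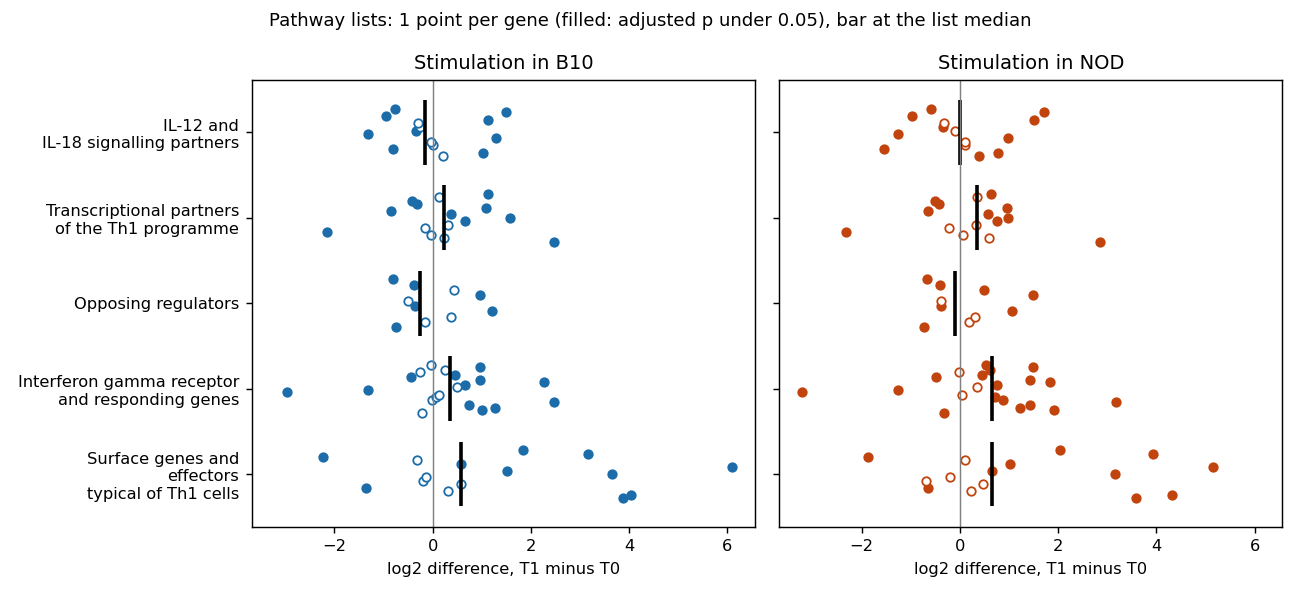
Log2 difference T1 minus T0 (x axis) of each gene in the 5 pathway lists (y axis) in B10 (left) and NOD (right); filled points passed an adjusted p of 0.05 and black bars are list medians, from -0.26 to 0.58 in B10 and from -0.10 to 0.66 in NOD. The response genes and effectors spread mostly to the right, and the signalling partners to both sides.

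The genes closest in pattern to each member, by Pearson's r of log2 values over the 10 arrays, are given as a description, and each r includes the differences between states and strains. For Ifng they were Aprt (r = 0.995), Zbtb32 (0.995) and Nfkbiz (0.994). For Tbx21 they were Atp2b1 (0.995), Zap70 (0.994) and Gadd45b (0.993). For Stat4 they were Sh3bgrl (0.986), Slamf6 (0.975) and Tmsb4x (0.973), for Il12rb2 Clip2 (0.986), Bloc1s1 (0.977) and Tspo (0.971), and for Il18r1 H2-Oa (0.995), Xbp1 (0.995) and Yme1l1 (0.993). For Runx3 they were Lasp1 (0.991), Cuta (0.99) and Dtd1 (0.989). The other three members had lower r with their closest genes. Those of Il18rap were Rabgap1l (0.962), Tox (0.946) and Cxcr6 (0.941), those of Eomes Akr1c13 (0.953), Poc1a (0.936) and Tstd3 (0.932), and those of Il12rb1 Prss23 (0.932), Rpl32l (0.924) and Ano1 (0.913).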

How the data were processed

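The deposited values are log2 intensities per probe set, which the submitters' processing notes tie to RMA and Affymetrix Power Tools; versions and options are not given in the sources used here, and log base 2 was read from the range of the values. RMA brings all arrays to one distribution, so a change is relative to the bulk of genes, and a change near background is understated. Of 35486 probe sets, 21789 had 1 gene symbol in the platform table, and each of 19938 genes was represented by its brightest probe set on average. All 10 arrays entered one limma fit with a mean per group, using limma 3.58.1 in R 4.3.3 (lmFit, eBayes, 6 residual and 6.30 prior degrees of freedom). The 5 contrasts were two-sided, with Benjamini-Hochberg adjustment over all genes and a threshold of 0.05. Values after ± are limma's standard errors. The procedure was tested on simulated data with 50 changed genes per size and contrast. Calls there numbered 167 and 174 for stimulation in B10 and NOD, against 6342 and 7085 in the data. For the interaction they numbered 136 against 49. The Benjamini-Hochberg cutoff depends on the number of calls, so the counts below are not detection rates for the data. A log2 change of 0.5 was called in 16 genes for stimulation in B10 and 21 in NOD. Between strains it was called in 24 at T0 and 11 at T1, and in 2 for the interaction. A change of 1 was called in 44 at T1 and 33 for the interaction, so smaller differences there can be missed. Named genes were all 9 members, at most 4 called genes per list and contrast, list genes whose role bears on a member, and the 3 most similar genes per member (predicted genes, small RNAs, olfactory and antigen receptor genes left out). The members, 5 pathway lists and 10 marker lists were chosen with earlier results of these data known. Symbols, gene order and promoters come from RefSeq (GRCm38.p6). Figures were drawn with matplotlib 3.10.9.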

Additional observations from a re-analysis of the deposited data

How the results depend on the processing

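Alternatives were 75th percentile alignment, array weights, a replicate block, omission of each array and of both B10 arrays of replicate 3. Averaging a gene's probe sets or testing every probe set kept estimates, as members had 1 each. So did brighter genes only (without Eomes), robust eBayes with a trend and fitting only the arrays compared. There, and in omissions of arrays outside a contrast, direction could not turn. For the 13 member results that passed, 254 of 260 alternative values passed too and none turned direction. The 6 others were 4 for Tbx21 at T0, 1 for Stat4 in B10 and 1 for Il12rb2 in NOD. Member counts under stimulation stayed within 5 to 7 in B10 and 5 to 8 in NOD over omissions. Between strains at T0, where 1 member passed, the count was 0 with every probe set tested, 3 with array weights, 2 with the replicate block, 2 without both B10 arrays of replicate 3 and 0 to 1 over single omissions. At T1, where 0 passed, it was 1 with only brighter genes, 1 with robust eBayes, 1 with the replicate block (fixed) and 1 with it random, 3 without both B10 arrays of replicate 3 and 0 to 3 over omissions (3 without B10_T1 replicate 3). For the interaction it was 0 to 1 over omissions. No cause of these changes was tested.

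Of the results that did not pass, 36 of 626 values turned sign. With the 75th percentile scaling the interaction became 0.045 for Ifng, 0.017 for Eomes and 0.032 for Runx3. With array weights it became 0.068 for Il12rb1, 0.074 for Eomes and 0.040 for Runx3. Without both B10 arrays of replicate 3 it became 0.16 for Eomes and 0.049 for Runx3, and Tbx21 at T1 became 0.017. Over single omissions the interaction ranged from -0.38 to 0.36 for Ifng, -0.31 to 0.16 for Il12rb1, -0.68 to 0.12 for Il18rap, -0.33 to 0.24 for Eomes and -0.092 to 0.024 for Runx3. Stimulation ranged from -0.085 to 0.27 for Il12rb1 in B10, -0.20 to 0.28 in NOD, and -0.65 to 0.15 for Il18rap in B10. The strain difference of Eomes ranged from -0.21 to 0.11 at T0 and -0.38 to 0.19 at T1, and that of Tbx21 at T1 from -0.18 to 0.045.

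Replicate numbers repeat across states. Deviations of T0 and T1 arrays of one number correlated with r of 0.41 and 0.40 in B10 and -0.014 and 0.22 in NOD. The labels do not state a pairing, and the main fit held no replicate block. Between strains, deviations of arrays of one number correlated with r from -0.22 to 0.11. The fixed block joined arrays of one number across both strains. With it, 3 further member results passed. They were Ifng at T0 (-0.57, adjusted p = 0.0443), Il18rap at T1 (-0.73, adjusted p = 0.0463) and Il18rap under stimulation in NOD (-0.52, adjusted p = 0.0442). These calls depend on the block: the random block joined arrays only within a strain, so the blocks differ in grouping and form. With the random block, Il18rap in NOD (adjusted p = 0.0490), Eomes in NOD (0.0472) and Il18r1 at T1 (0.0476) passed, and Ifng at T0 and Il18rap at T1 did not. Over all genes, counts of calls moved most between strains and in the interaction: at T0 1155 became 2316 with array weights and 571 to 1306 over omissions (642 without B10_T0 replicate 1 and without replicate 2, 599 without NOD_T0 replicate 1, 571 without replicate 3). At T1 718 became 292 with array weights, 128 with only the arrays compared and 184 to 889 over omissions (184 without B10_T1 replicate 2, 270 without NOD_T1 replicate 3). The interaction count of 49 became 31 with the 75th percentile scaling, 31 with array weights, 102 with robust eBayes and 13 to 69 over omissions. A lone T1 array left by an omission is assumed to vary like the other groups.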
